A study of Homo sapiens and Mus musculus with 16 samples.

Results

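Chromatin accessibility was examined at 7 genes that are recurrently lost or mutated in pancreatic cancer: CDKN2A, CDKN2B, MTAP, SMAD4, ARID1A, BRCA2 and STK11. The members were chosen by gene name, and every accessible region that overlapped the gene body or the 50 kb on either side was taken, in hg38 for the human genes and in mm10 for the mouse orthologs. This gave 94 of 118107 regions in the HPAF-II control (Cas9) list, 79 of 97047 in the HPAF-II HNF4G-KO list, 65 of 68074 in the KPC primary tumor list and 79 of 80843 in the KPC liver mets list, or 317 of 364071 regions in all. All 7 genes had a mouse ortholog of the same symbol. The windows of CDKN2A, CDKN2B and MTAP, neighbors on human chromosome 9 and mouse chromosome 4, overlap, and a region in more than one of them was counted once in totals.

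ATAC-seq uses a transposase that inserts adapters into DNA not covered by nucleosomes, so that open chromatin collects reads. The study held 16 samples in 4 groups of 4 replicates. HPAF-II is an established human pancreatic adenocarcinoma line. Its control cells are labelled WT and carry Cas9, and its HNF4G-KO cells, a pool of clones, were given a CRISPR knockout of HNF4G, which encodes a nuclear receptor that binds DNA. The other groups are untreated mouse cell lines from the KPC model, a mouse model of pancreatic cancer in which Cre expressed in the pancreas switches on alleles that include mutant Trp53 (the labels enter their genotype as WT): one line from a primary tumor and one from liver metastases (mets), described by the study as matched. Each group is represented by 1 list of regions with no value per replicate, so no difference given here has a replicate check, no test across samples could be made, and read depth is unknown. The clones used carry frameshift mutations in HNF4G, which the study calls heterozygotic. A frameshift need not remove a region, so the lists do not check the knockout.

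The members act in separate pathways. CDKN2A encodes 2 unrelated proteins from separate start sites: p16 (INK4A), which inhibits CDK4 and CDK6 and so holds the cell cycle, and ARF, which stabilizes p53. CDKN2B next to it encodes p15 (INK4B), another inhibitor of these kinases, and MTAP, an enzyme that salvages methionine and adenine, is often deleted with them. SMAD4 carries TGF-beta signals into the nucleus, ARID1A is a DNA-binding subunit of the SWI/SNF chromatin remodeler, BRCA2 acts in DNA repair by homologous recombination, and STK11 encodes the kinase LKB1, which activates AMPK. A homozygous deletion of such a gene would leave a stretch with no region at all, whereas a list with regions throughout shows that its DNA is there.

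The cells were checked against markers. All 5 epithelial markers (KRT8, KRT18, KRT19, EPCAM and CDH1) had a region within 1 kb of a start site in all 4 lists. Of 3 fibroblast markers 1 did (COL1A1), of 3 leukocyte markers 1 did (CD68), and the hepatocyte markers ALB and APOA1 had none in any list. TTR, the other hepatocyte marker, had one in both HPAF-II lists and in the KPC primary tumor list, and not in mets. By score percentile (defined below), the epithelial markers ran from 54.2 to 94.5 in control and 54.0 to 98.2 in HNF4G-KO. In the KPC lists they ran from 16.1 to 58.1 (primary tumor) and 13.9 to 65.9 (mets). COL1A1 stood at 86.7, 94.1, 75.8 and 79.8 in the 4 lists, and CD68 at 96.8, 95.1, 55.7 and 60.3. The ranks thus do not set the epithelial markers as a set above these.

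The promoters of CDKN2A are shown because they set the human and mouse lists apart. They are the 250 bases before each start site, read 5′ to 3′ on the minus strand, in lower case with capitals for exact matches of 8 consensus sequences searched on both strands. These were CAAAGTCCA for HNF4, TGTTTAC for the FOXA factors, AGATAAG for the GATA factors, TGANTCA for AP-1, CCGGAAGT for the ETS factors, GGGCGG for the GC box, GCGCATGC for NRF1 and the CCAAT box. The human sequences are RefSeq promoters, which were held for all 7 members, and the mouse sequences were read from the mm10 genome at GENCODE start sites.
Human p16 start, chr9:21974858-21975107: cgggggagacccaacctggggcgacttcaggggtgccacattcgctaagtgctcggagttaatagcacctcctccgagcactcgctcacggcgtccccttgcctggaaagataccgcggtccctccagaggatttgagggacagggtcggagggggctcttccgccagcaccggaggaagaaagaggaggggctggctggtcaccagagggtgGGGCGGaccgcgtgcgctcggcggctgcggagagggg
Human ARF start, chr9:21995325-21995574: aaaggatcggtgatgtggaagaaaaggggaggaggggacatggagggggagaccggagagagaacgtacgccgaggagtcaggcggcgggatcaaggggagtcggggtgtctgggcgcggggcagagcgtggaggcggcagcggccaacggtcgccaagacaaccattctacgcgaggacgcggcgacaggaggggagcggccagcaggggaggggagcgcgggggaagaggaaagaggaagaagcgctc
Mouse p16 start, chr4:89282193-89282442: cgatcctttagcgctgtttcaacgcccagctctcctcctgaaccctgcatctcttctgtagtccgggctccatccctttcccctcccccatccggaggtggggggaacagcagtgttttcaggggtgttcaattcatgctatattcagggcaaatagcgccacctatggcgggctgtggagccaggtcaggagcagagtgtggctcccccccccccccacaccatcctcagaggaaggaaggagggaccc
Mouse ARF start, chr4:89294654-89294903: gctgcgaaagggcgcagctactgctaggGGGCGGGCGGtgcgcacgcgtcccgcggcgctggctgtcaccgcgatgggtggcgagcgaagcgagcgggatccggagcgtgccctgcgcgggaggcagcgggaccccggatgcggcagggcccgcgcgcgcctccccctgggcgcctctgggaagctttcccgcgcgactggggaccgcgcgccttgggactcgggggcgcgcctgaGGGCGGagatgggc
The capitals mark 1 GC box before the human p16 start and 3 before the mouse ARF start, of which 2 overlap. Neither the human ARF nor the mouse p16 stretch held any of the 8 sequences. A GC box is found in 42.6% of all 35116 RefSeq promoter stretches of this length.

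The p16 and ARF start sites of CDKN2A were both accessible in HPAF-II. In the control (Cas9) list the p16 start (21974857 to 21974866 on chromosome 9) lay under a region of 1566 bp (21974357 to 21975922) whose score ranked at percentile 90.9 of that list. In the HNF4G-KO list the same stretch was covered by 2 regions, one of 1061 bp over the start site at percentile 87.3 and one of 230 bp at percentile 22.8. A score percentile is the share of the list's regions with a lower deposited score, with ties set to their middle rank, and is compared only within a list or between the lists of a pair. A further cluster of annotated CDKN2A starts (21971332 to 21971400) had no region within 1 kb in either list. The ARF start was covered by a region of 2335 bp at percentile 81.6 in control and of 2068 bp at percentile 74.1 in HNF4G-KO. The start of CDKN2B was covered at percentile 92.6 in control, the highest rank in either CDKN2 window, and at 86.9 in HNF4G-KO.

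In the KPC lines a region was listed at the ARF start and none at the p16 start. A region of 931 bp in the primary tumor list (89294294 to 89295224 on mouse chromosome 4) and of 871 bp in the mets list covered the ARF start, at percentiles 54.6 and 56.2. Around the p16 start at 89282192, no region was listed from 89258221 to 89294293 in the primary tumor list and from 89258162 to 89294302 in the mets list, a span of 36.1 kb in both. This span took up 98.2% of the Cdkn2a gene body in the primary tumor and 98.3% in mets. The nearest region, that of the ARF start, was 12102 bp and 12111 bp away. Cdkn2b kept a region at its start site, at percentile 86.4 in the primary tumor and 74.4 in mets. Across all mouse protein-coding genes, 57.2% had a region within 1 kb of a start site in the primary tumor list and 58.2% in the mets list, and the longest empty span of a window with its 50 kb flanks had a median of 49.3 kb and 46.7 kb, so a stretch of 36.1 kb with no region is not unusual in length. Closed chromatin, a deletion and a signal below the calling threshold cannot be told apart from a list of regions.

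**Figure D1:**
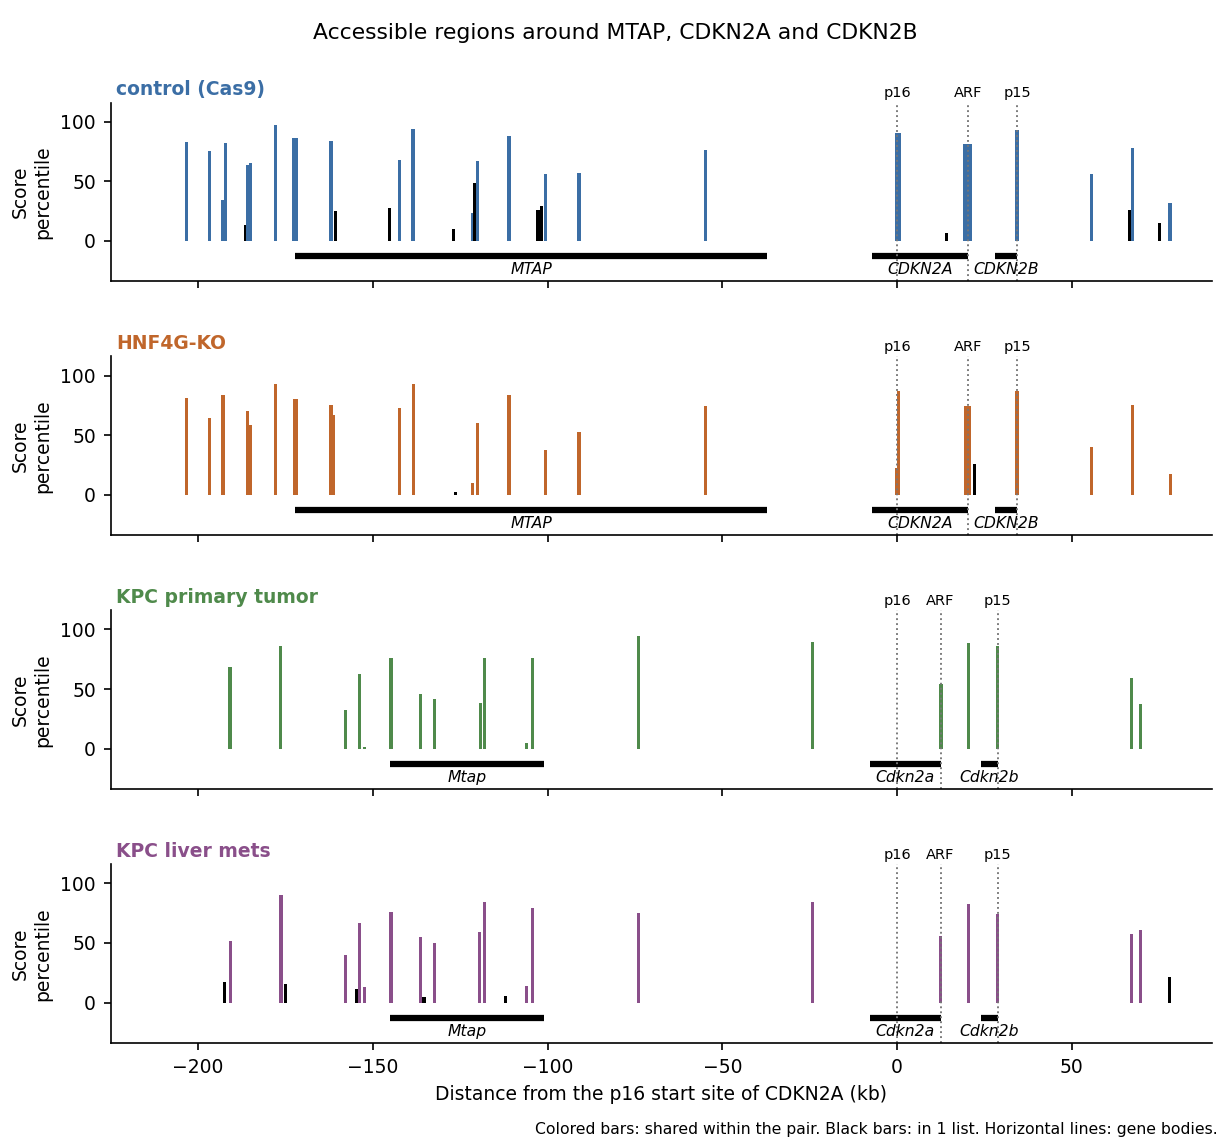
Score percentile (y axis) of every accessible region in the windows of MTAP, CDKN2A and CDKN2B and their mouse orthologs, in the 4 lists, against distance from the p16 start site in kb (x axis). Colored bars are regions shared within the pair, black bars are in 1 list, and horizontal lines are gene bodies. Regions stand at the p16, ARF and p15 (CDKN2B) starts in both HPAF-II lists, and at the ARF and p15 starts only in both KPC lists.

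In HPAF-II regions were listed at all 3 of these genes. The windows together held 34 regions in control and 26 in HNF4G-KO, and the longest stretch with no region ran 54.0 kb in control (21920346 to 21974356) and 54.1 kb in HNF4G-KO, from the 3′ part of MTAP to the p16 start. It left the p16, ARF, CDKN2B and first MTAP starts covered, but took in the further cluster of CDKN2A starts at 21971332 to 21971400. The median longest empty span over all human protein-coding genes was 39.4 kb in control, and 10% of genes had one above 101 kb. In the KPC lines the windows together held 19 regions in the primary tumor and 25 in mets. The strongest region in the Cdkn2a window lay outside the gene, in an intron of the long noncoding RNA gene Gm12606 (89257625 to 89258220, 16.3 kb past the 3′ end of Cdkn2a), at percentile 89.9 in the primary tumor and 84.3 in mets.

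MTAP held most of the regions of the chromosome 9 windows. Its window had 26 regions in control, 17 of them over the gene body, and 20 in HNF4G-KO. The strongest lay 5.26 kb before the first start site (21796498 to 21797378), at percentile 97.2 in control and 93.2 in HNF4G-KO, and held AP-1 and CCAAT matches. The start site itself was at percentile 86.1 in control and 80.3 in HNF4G-KO. An intronic region at 21835934 to 21837054 ranked at 94.2 and 93.0. In mouse the Mtap start was at percentile 75.7 in the primary tumor and 75.8 in mets, and the strongest region of the primary tumor list, 26.7 kb past the gene (89207769 to 89208249), stood at percentile 94.7 there and at 75.1 in mets. In mets the strongest was instead a region 31.3 kb before the start site, at 89.9, which stood at 86.3 in the primary tumor.

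At the MTAP locus no region in 1 list only ranked above percentile 48.9. Regions with no overlap of even 1 bp with the other list of the pair are called control-only, KO-only, tumor-only or mets-only. In the 7 human windows, 21 of 94 control regions were control-only (22.3%, Wilson 95% interval 15.1 to 31.8), where 25.0% of the whole control list was. In the other direction 2 of 79 HNF4G-KO regions were KO-only (2.53%, 0.697 to 8.77), against 6.76% of the whole HNF4G-KO list. The KO-only share was the lower of its pair of values, but both intervals hold the share of their list, and they cover counting error only. With lists of equal size the KO-only share was 5.06% (1.99 to 12.3) against 12.7% of the list. Of the 21 control-only regions, 8 lay in the MTAP window, at percentiles from 5.44 to 48.9, and the highest of these, 983 bp from an internal MTAP start site, was also the highest of all control-only regions at the 7 genes. Both KO-only regions fell in the chromosome 9 windows, one in an MTAP intron at percentile 2.35 and one 1241 bp before the CDKN2A ARF start at percentile 25.6.

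The 2 sequences that follow are the strongest control-only region and the strongest KO-only region at the 7 genes, plus strand of hg38, with the same capitals.
Control-only, MTAP, chr9:21853454-21853741: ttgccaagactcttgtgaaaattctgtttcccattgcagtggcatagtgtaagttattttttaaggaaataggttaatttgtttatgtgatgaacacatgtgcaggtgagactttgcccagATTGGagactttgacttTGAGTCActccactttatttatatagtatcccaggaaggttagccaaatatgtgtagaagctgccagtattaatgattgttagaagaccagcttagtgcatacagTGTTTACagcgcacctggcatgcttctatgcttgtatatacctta
KO-only, CDKN2A, chr9:21996542-21996770: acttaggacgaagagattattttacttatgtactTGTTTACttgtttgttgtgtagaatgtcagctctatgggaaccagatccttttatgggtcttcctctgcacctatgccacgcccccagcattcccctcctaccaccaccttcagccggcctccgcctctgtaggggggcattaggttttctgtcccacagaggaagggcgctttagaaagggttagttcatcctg
The MTAP region held 1 FOXA, 1 AP-1 and 1 CCAAT match and the CDKN2A region held 1 FOXA match. A FOXA match was found in 9.76% of all control regions and in 9.51% of all HNF4G-KO regions, and neither region held the HNF4 sequence.

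The HNF4 sequence was in none of the regions at the 7 genes. It was found in 0 of 94 control regions (Wilson upper limit 3.93%), 0 of 79 HNF4G-KO regions (4.64%), 0 of 65 primary tumor regions (5.58%) and 0 of 79 mets regions (4.64%), where the whole lists held it in 1.60%, 1.40%, 1.48% and 1.28% of regions. The limits lie above the shares of the whole lists, so a difference was not detectable with this number of regions. FOXA matches were found in 15 of 94 control regions (9.92% to 24.7%), 15.2% of HNF4G-KO (8.91 to 24.7), 16.9% of primary tumor (9.72 to 27.8) and 12.7% of mets regions (7.02 to 21.8), against 9.76%, 9.51%, 9.71% and 8.90% of the lists. The intervals for HNF4G-KO and mets hold the share of their list, and those for control and the primary tumor begin just above it. AP-1 matches were found in 30.9% of control (22.4 to 40.8), 30.4% of HNF4G-KO regions (21.3 to 41.2), 26 of 65 primary tumor regions (29.0 to 52.1) and 38.0% of mets regions (28.1 to 49.0), below the 39.1%, 39.2%, 46.0% and 43.7% of the lists but with each interval holding its list's share. GC boxes were found in 33.0% of control (24.3 to 43.0), 35.4% of HNF4G-KO (25.8 to 46.4), 41.5% of primary tumor (30.4 to 53.7) and 39.2% of mets regions (29.2 to 50.3), against 23.9%, 26.1%, 24.9% and 21.8%. Within 1 kb of an annotated start site lay 39.4% of the regions at the 7 genes in control and 48.1% in HNF4G-KO. In the primary tumor 46.2% did, and in mets 39.2%. The same share of the whole lists was not computed, so its bearing on the GC boxes was not tested. The median share of G and C bases at the 7 genes was 51.4% in control, 52.2% in the primary tumor and 52.4% in mets. Over these whole lists it was 49.3%, 48.8% and 48.5%. In HNF4G-KO it was 57.0%, also above its whole list. A match describes the letters of a region and is not a bound site.

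SMAD4 had the highest share of control-only regions of the 7 genes. Its window (gene at 51028528 to 51085045 on chromosome 18, plus strand) held 11 regions in control, of which 6 were control-only (54.5%, 28.0 to 78.7), and 5 in HNF4G-KO, all of them shared. The interval lies above the 25.0% of the whole list, and with 7 windows looked at and 11 regions in this one, no test was made. The control-only regions were at percentiles 44.5, 24.4, 22.8, 20.2, 14.6 and 5.44. The one at 20.2 (51028255 to 51028469) lay 59 bp before the most upstream SMAD4 start. In HNF4G-KO the region nearest to that start was the main promoter region, 1047 bp away and so just outside 1 kb. The control-only regions at 44.5 and 24.4 lay 13333 and 18412 bp from a start site of ELAC1, which encodes a tRNA-processing enzyme. The main SMAD4 promoter stood high in both lists, with a region of 1335 bp at percentile 86.6 in control and of 1410 bp at 85.4 in HNF4G-KO. Downstream of the gene, a region at 51107642 to 51108270 stood at percentile 77.3 in control and 47.5 in HNF4G-KO, and one before the gene (51009148 to 51009481) at 58.0 and 33.2. From 51051391 to 51100668, 49.3 kb that include 59.5% of the gene body, control held no region, and in HNF4G-KO the gap ran 56.4 kb.

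In regions per 100 kb, the mouse Smad4 window stood at percentile 36.5 of mouse protein-coding genes in the primary tumor and 35.5 in mets. It held 5 regions in the primary tumor list, all shared, and 6 in mets, of which 1 was mets-only. This was a region of 223 bp at percentile 5.68, nearest to Elac1. The start site region stood at percentile 67.8 in the primary tumor and 72.8 in mets. The shared region that differed most, past the gene end and nearest to Mex3c, was at percentile 63.1 in the primary tumor and 22.4 in mets. The strongest region lay in an intron of Elac1, at 74.0 in the primary tumor and 85.8 in mets.

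At ARID1A the strongest region lay at the same place in the gene in both species. In the control list it lay at 26771290 to 26772291 on chromosome 1, 78.1 kb into the gene and 9.81 kb before its end, at percentile 99.1, and in HNF4G-KO at 94.9. In mouse the strongest region of the Arid1a window lay 67.8 kb into the gene and 9.08 kb before its end in the primary tumor list (133688088 to 133689014 on chromosome 4), at percentile 91.0, and at 96.6 in mets. The strongest human control region and the strongest mets region aligned over 650 columns with 498 identical bases (76.6%), on opposite genomic strands, as the genes are. For the other members whose sequence was compared, the strongest regions of the 2 species aligned over 330 columns at STK11 (69.7% identical), where both lie at the promoter, and over at most 25 columns at CDKN2A, CDKN2B, MTAP and BRCA2, where the strongest regions lie in different places.

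The longest stretch of the ARID1A alignment without a gap, 77 columns with 65 identical bases (84.4%), is shown with identical bases in capitals, the human on the plus strand of hg38 and the mouse on the minus strand of mm10. It lies in an intron of the protein-coding transcripts of both genes, and in the human annotation it also falls in an exon of a transcript with a retained intron.
ARID1A, chr1:26771859-26771935: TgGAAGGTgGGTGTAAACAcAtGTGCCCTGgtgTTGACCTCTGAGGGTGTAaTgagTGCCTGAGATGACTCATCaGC
Arid1a, chr4:133688450-133688526: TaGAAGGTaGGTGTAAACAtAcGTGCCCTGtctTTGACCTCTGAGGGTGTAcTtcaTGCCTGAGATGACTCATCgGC
Both stretches held a FOXA match, TGTTTAC on the opposite strand, and an AP-1 match. The conserved bases are a description of the sequence, and neither match was tested for binding.

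**Figure D2:**
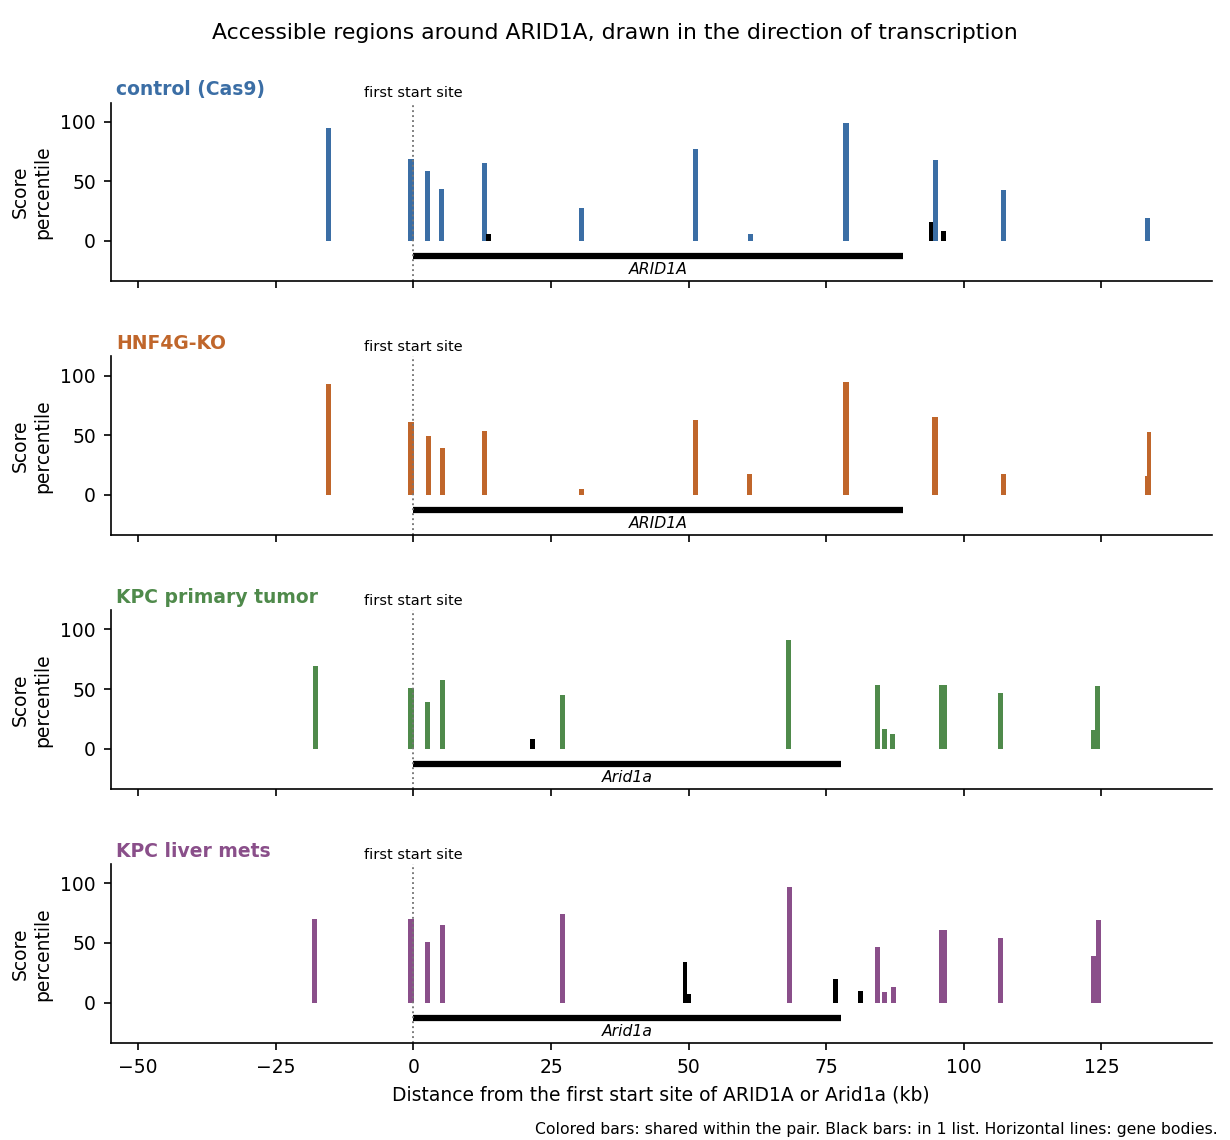
Score percentile (y axis) of every accessible region in the ARID1A and Arid1a windows in the 4 lists, against distance from the first start site in kb in the direction of transcription (x axis). Colored bars are regions shared within the pair and black bars are in 1 list. The highest bar lies near the 3′ end of the gene in all 4 lists, at percentiles 99.1, 94.9, 91.0 and 96.6.

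The start sites of the protein-coding transcripts of ARID1A ranked lower than this element. In human the element itself lies within 1 kb of an annotated transcript start that is not protein-coding. The first start was covered at percentile 69.1 in control and 61.0 in HNF4G-KO, and the second, in a GC-rich stretch, had a region at 58.3 and 48.9. A region 15278 bp before the gene ranked at 94.5 in control and 92.9 in HNF4G-KO. Annotated starts further into the gene, from 26727708 to 26729657, had no region within 1 kb. Of 15 control regions 3 were control-only (20.0%, 7.05 to 45.2), at percentiles 5.44, 16.1 and 8.12, and the last 2 were nearest to PIGV, which encodes an enzyme of GPI-anchor synthesis. None of the 13 HNF4G-KO regions was KO-only. An intronic region at 26723273 to 26723862 was at 27.3 in control and 5.19 in HNF4G-KO. The start site region of ZDHHC18, a palmitoyltransferase gene, went the other way, from 18.8 to 52.3, and was split in 2 in HNF4G-KO.

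In the KPC lines most Arid1a regions ranked higher in mets. Of 13 shared primary tumor regions 11 were higher (median change 7.15 percentile points), where 64.9% of all shared regions were (median 3.67), and with ranks taken within the shared regions 9 of 13 were higher (median 3.15). Among the 11 were the first start site, from 50.8 to 70.1, and an intronic region at 133729547 to 133730114, from 45.1 to 73.9. Tumor-only regions made up 3 of 65 primary tumor regions over the 7 mouse windows (4.62%, 1.58 to 12.7), against 8.51% of the whole list, and mets-only regions 16 of 79 (20.3%, 12.9 to 30.4), against 20.2% of the whole list. The Arid1a window held 1 of the tumor-only regions, an intronic one at percentile 8.47, and 4 of the mets-only regions. Of these 4, at percentiles 34.2, 20.0, 9.93 and 7.15, the first was the highest mets-only region of all 7 windows, in an intron at 133707568 to 133707882, and the 2 at 20.0 and 9.93 were nearest to Pigv.

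Over the BRCA2 gene body the promoter was the one region listed in HPAF-II. Its window (gene at 32315086 to 32400268 on chromosome 13, plus strand) held 5 regions in each HPAF-II list, all shared, and 1 of them over the gene: the start site region, of 1443 bp at percentile 92.1 in control and of 1278 bp at 91.4 in HNF4G-KO. The 250 bases before the RefSeq start hold 1 ETS match, as 3.42% of such stretches do. From 32316395 to 32426150, 110 kb that include 98.5% of the gene body, control had no region, and HNF4G-KO had none from 32316250 to 32426162. With 2.70 regions per 100 kb in control, the window stood at percentile 15.1 of all human protein-coding genes. Of the flanking regions, the strongest (32267859 to 32268199) was at percentile 82.5 in control and 70.5 in HNF4G-KO, that at the N4BP2L1 start was at percentile 71.5 and 63.7, and one next to it at 45.9 and 22.5. Mouse Brca2 had 2 regions over the gene in each list, one at the start site (70.6 in the primary tumor, 76.8 in mets) and one in an exon near the 3′ end (85.8 and 72.9), with an empty 40.4 kb between them in the primary tumor, or 84.8% of the gene. Its strongest region lay beyond the gene in an intron of N4bp2l2, at 93.9 in the primary tumor and 98.9 in mets, and its single mets-only region, at percentile 3.47, covered a start site of N4bp2l1.

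STK11 lay in the densest window of the 7. Its window (gene at 1177558 to 1228431 on chromosome 19, plus strand) held 29 regions in control, 19.2 per 100 kb, at percentile 99.2 of human protein-coding genes, and 30 in HNF4G-KO. Mouse Stk11, with 18.3 per 100 kb in the primary tumor and 20.9 in mets, stood at percentiles 99.4 and 99.7. In human 11 of the 29 control regions lay over the annotated gene of 50874 bp, which begins at an upstream start before the main starts at 1205778. In mouse 2 of 21 primary tumor regions lay over a gene of 14880 bp, so the counts cover unlike lengths. In the primary tumor an empty 14.3 kb, or 95.9% of the mouse gene body, lay between the start site and the 3′ end. One control region was control-only (3.45%, 0.611 to 17.2, against 25.0% of the list), at percentile 7.28 and nearest to SBNO2, and no HNF4G-KO region was KO-only. The strongest control region covered the main start site, at 89.0 against 82.8 in HNF4G-KO. In HNF4G-KO the strongest was at the start of FAM174C, at 87.2 against 79.4 in control. Within the gene, an intronic region at 1194507 to 1194812 was at 43.5 in control and 11.1 in HNF4G-KO. One of 1533 bp beyond the main start site was at 47.5 in control and was split into regions at 19.7 and 14.8 in HNF4G-KO.

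Nearly all Stk11 regions ranked higher in mets than in the primary tumor. Of its 19 shared primary tumor regions 18 ranked higher in mets and the median change was 11.2 points, where 64.9% of all shared regions were higher and their median was 3.67. With ranks taken within the shared regions 17 were higher and the median was 6.71, against 54.6% and 0.988. The start site moved from 89.4 to 92.9, and a region at the 3′ end of the gene from 75.5 to 81.9. The exception lay at the start of Midn, from 38.4 to 15.9. The window held 2 tumor-only regions, at 18.6 over a start site of Sbno2 and at 7.57 near Cirbp, and 4 mets-only regions, at 12.5, 8.79, 3.38 and 0.572, nearest to Midn, Cirbp, 1600002K03Rik and Sbno2. Mtap, with 5 mets-only regions of 18 at percentiles from 5.09 to 17.1, and Cdkn2b, with 1 of 7 at 21.7, held the rest besides Smad4 and Brca2.

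**Figure D3:**
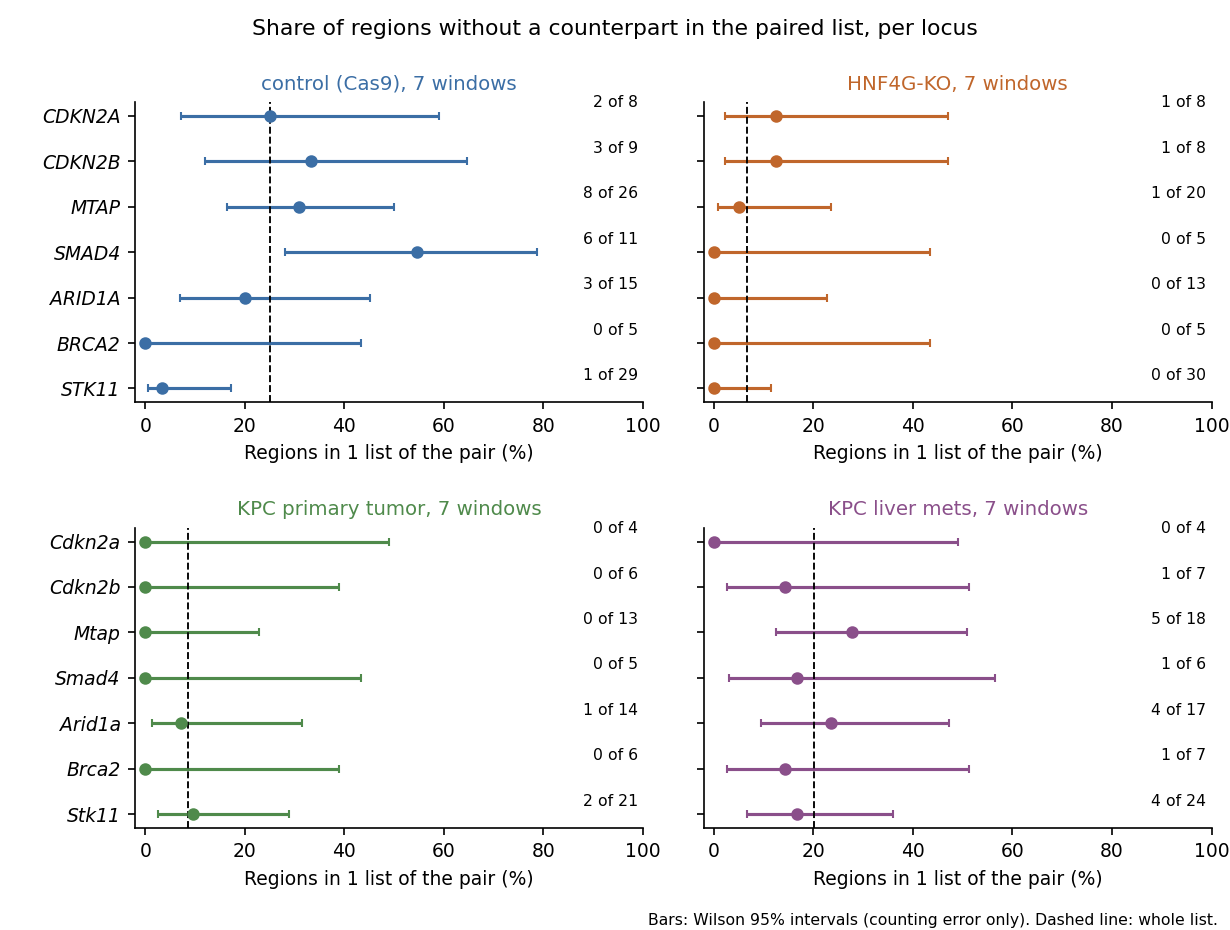
Share of the regions in each window that have no counterpart in the other list of the pair (x axis, %), for each gene (y axis) in the 4 lists, with Wilson 95% intervals for counting error. The dashed line is the share in the whole list, and the interval of SMAD4 in control lies above it (54.5%, 28.0 to 78.7) and that of STK11 below it (3.45%, 0.611 to 17.2).

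Regions in 1 list ranked low at these loci as they did over the whole lists. In control their median percentile was 16.1 against 63.6 for the shared regions of the same windows, in HNF4G-KO 14.0 against 54.2, in the primary tumor 8.47 against 53.2 and in mets 9.36 against 60.5. Over the whole lists the same medians were 17.9 against 62.1, 11.5 against 53.3, 11.6 against 54.1 and 19.4 against 58.9. None in any list stood above percentile 50. They were also narrow, with a median of 253 bp against 590 bp in control and of 250 bp against 495 bp in mets. At every one of the 7 genes a shared region lay at a start site in all 4 lists, and no member was without a region at a start site, although the mouse p16 start and some internal starts of CDKN2A, Stk11, and SMAD4 and ARID1A in both species had none.

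With each gene taken at its highest-ranked protein-coding start site, and CDKN2A at both, the start sites stood in an order that was similar within a pair. Other starts ranked lower, such as the most upstream start of STK11 (63.6 in control and 55.7 in HNF4G-KO). In control it ran from CDKN2B (92.6), BRCA2 (92.1) and the p16 start (90.9) through STK11 (89.0), SMAD4 (86.6), MTAP (86.1) and the ARF start (81.6) to ARID1A (69.1). In HNF4G-KO it ran from BRCA2 (91.4), the p16 start (87.3), CDKN2B (86.9) and SMAD4 (85.4) through STK11 (82.8), MTAP (80.3) and the ARF start (74.1) to ARID1A (61.0). Over all human genes with a start site region the median was 84.6 in control. In the primary tumor the order was Stk11 (89.4), Cdkn2b (86.4), Mtap (75.7), Brca2 (70.6), Smad4 (67.8), the ARF start (54.6) and Arid1a (50.8), and in mets Stk11 (92.9), Brca2 (76.8), Mtap (75.8), Cdkn2b (74.4), Smad4 (72.8), Arid1a (70.1) and the ARF start (56.2). With no value per replicate, neighbors in these orders cannot be told apart by any spread.

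All 8 of these start site regions ranked lower in HNF4G-KO than in control, and most other shared regions did too. Of the 73 shared control regions at the 7 genes 60 were lower (82.2%), with a median change of -5.17 percentile points (quartiles -12.0 and -1.39), where 70.0% of all 88632 shared regions were lower and their median was -4.65. The lists differ in length, and a longer list places the same region higher. With ranks taken within the shared regions, 37 of the 73 were higher and the median was 0.174 (0.676 over the whole lists), so that the downward direction was lost. In these ranks 4 of 6 shared regions at CDKN2A and 5 of 6 at CDKN2B were lower, windows that share most of their regions, and 16 of 28 at STK11 were higher.

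In the KPC pair the shift was upward. Of 62 shared primary tumor regions 49 ranked higher in mets (79.0%), with a median change of 7.30 points (quartiles 1.16 and 12.6), against 64.9% and 3.67 for all 62280 shared regions. With ranks taken within the shared regions, 43 of 62 were higher (69.4%, median 3.99), against 54.6% and 0.988 over the whole lists. The members did not move alike. None of the 4 shared regions of the Cdkn2a window and 1 of 6 of the Cdkn2b window ranked higher in this way, with medians of -8.58 and -7.84. All 4 regions of the Cdkn2a window also lie in the Cdkn2b window, so these are not separate results. At Stk11 17 of 19 ranked higher, with a median of 6.71, and at Arid1a and Mtap 9 of 13 each. The Cdkn2b start site region, which is among these 4, went from 86.4 to 74.4. These counts come from 1 list per group and were not tested.

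**Figure D4:**
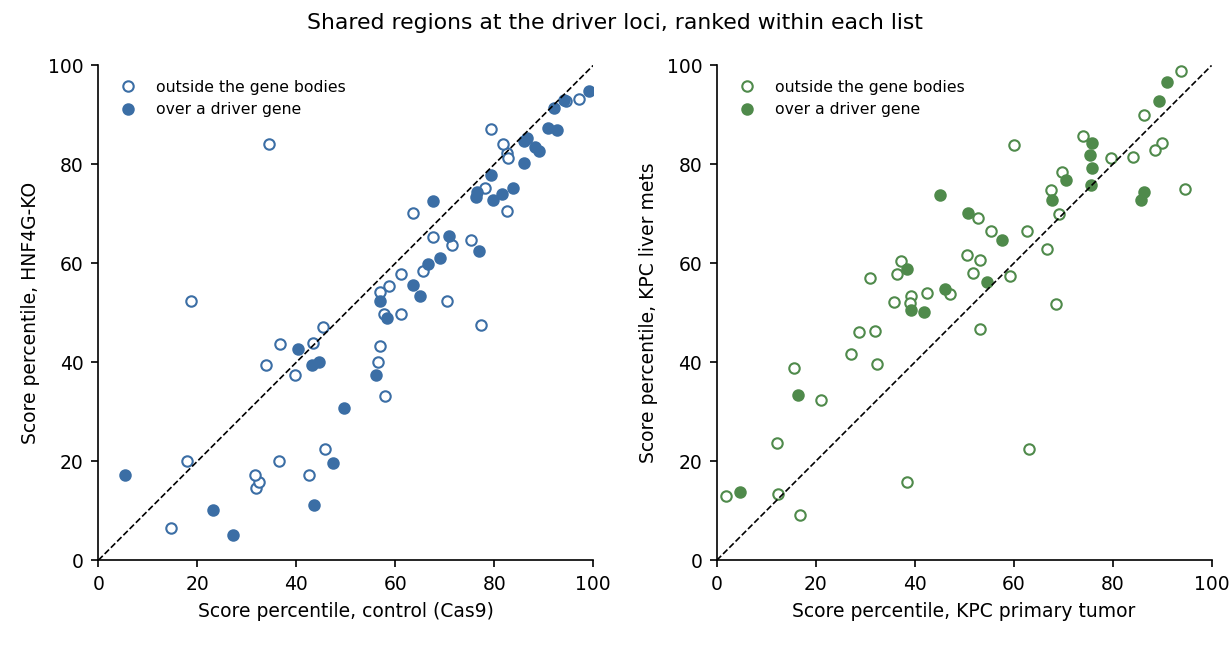
Score percentile of each shared region at the 7 genes in both lists of its pair: HNF4G-KO (y axis) against control (x axis) at the left, and mets (y axis) against primary tumor (x axis) at the right. Filled points overlap a member's gene body, and the dashed line marks equal percentiles. In HPAF-II 60 of 73 points lie below the line and in the KPC lines 49 of 62 lie above it.

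Partners of the members in the same pathways all had a region at a start site. Of 31 genes of the cell cycle, p53, TGF-beta, SWI/SNF, homologous recombination and LKB1 pathways and other pancreatic cancer drivers, all 31 had one in all 4 lists, where 72.7% (control), 70.9% (HNF4G-KO), 57.2% (primary tumor) and 58.2% (mets) of all protein-coding genes did. In their windows 91 of 425 control regions were control-only (21.4%, 17.8 to 25.6) and 16 of 353 HNF4G-KO regions were KO-only (4.53%, 2.81 to 7.24), close to the shares at the members. Of 366 primary tumor regions 36 were tumor-only (9.84%, 7.19 to 13.3), and of 392 mets regions 47 were mets-only (12.0%, 9.14 to 15.6), below the 20.2% of the whole mets list. The genes with the most regions in 1 list were, in HPAF-II, CDK6, the kinase that p16 inhibits (13 control-only of 32 control regions and 1 KO-only of 21), ARID1B, the paralog of ARID1A (7 of 31 and 1 of 25), and KDM6A, a histone demethylase (6 of 16 and 1 of 11), which comes first by symbol among genes tied at 7 in both lists together. In the KPC lines they were Arid1b (6 tumor-only of 29 and 3 mets-only of 27), Rnf43, an inhibitor of Wnt signaling (4 of 21 and 2 of 19), and, with 5 each in both lists together, Brca1 (2 of 15 and 3 of 17), Cdk6 (3 of 24 and 2 of 24) and Smarcb1 (0 of 11 and 5 of 16).

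Other genes had counts much like those of the members. Likeness was the Euclidean distance over 8 numbers, the regions and the regions in 1 list in each of the 4 lists, among 15720 genes outside the windows with the same symbol in both species. BRCA2 had the same 8 counts as SLC30A5 (distance 0). The nearest to CDKN2A was FOXO4 and to CDKN2B PNLDC1 (1.00 each), to SMAD4 TMEM184C (1.41), to MTAP FRMD6 and to ARID1A PPP2CA (1.73 each), and to STK11 SPTBN4 (3.32).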

How the data were processed

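ATAC-seq was done on 16 samples, 4 replicates in each of 4 groups, assigned from their titles. The authors deposited 1 BED list per group with a score per region. No source gives the scale of the score, and it served for ranks within 1 list alone (mid-rank percentile). The submitters' processing notes name Bowtie2 2.2.6, MACS2 2.1.1.20160309 and DiffBind without their roles. How replicates were combined, the calling threshold and the depth are not given in the sources used here, and the paper describes the assay for HPAF-II alone. A deeper group would list more weak regions. All regions lay inside the chromosomes of hg38 (HPAF-II) or mm10 (KPC), and coordinates are 1-based.

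Windows were gene bodies with 50 kb flanks (GENCODE v44, vM21). Regions with 1 bp of overlap were shared and paired by longest overlap. Start site regions lay within 1 kb of a start of a protein-coding transcript. Shares of regions near an annotated start site counted transcripts of every type. Classes (exon, intron, intergenic) came from region centers. Wilson 95% intervals cover counting error only. Strongest regions were aligned locally with Biopython 1.88 (match 2, mismatch -3, gap opening -5, extension -2), which was chosen after the regions had been seen and was not done for SMAD4. Interval functions were tested on simulated data. Python 3.11.15, pandas 2.3.3 and scipy 1.17.1 were used.

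Besides the members, genes named are the 3 of the pathway list per pair with the most regions in 1 list, the nearest protein-coding genes of such regions, the gene most like each member, and neighbors of strong or shifted regions, which were chosen after their values were seen. The members and lists were chosen with earlier results of these data known. Alternatives covered overlap, score threshold, list size, flank, ranking and pairing.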

Additional observations from a re-analysis of the deposited data

How the results depend on the processing

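With regions within 500 bp counted as shared, the control-only share at the 7 genes moved from 22.3% to 14.9% and the KO-only share from 2.53% to 0% (whole lists 22.1% and 5.49%). With lists of equal size the control-only share moved to 12.3% and the mets-only share from 20.3% to 6.45%, where the whole lists gave 15.1% and 14.0%. The KO-only and tumor-only shares then came to 5.06% and 10.8% (whole lists 12.7% and 15.6%). Ranking among shared regions alone turned the median change from control to HNF4G-KO from -5.17 to 0.174 percentile points, while the change from primary tumor to mets stayed positive (3.99) as with other flanks and pairing (6.14 to 7.30). Requiring 50% of a region to be overlapped, the upper 50% of each list or flanks of 10 or 100 kb kept each share inside its 95% interval. In the upper 50% of each list, 19 of 28 region counts and 7 of 28 longest empty spans changed by over 1.5 times, the longest reaching 80.2 kb at Smad4 in both KPC lists. No paired analysis was possible because the lists hold no value per replicate, and for the same reason no replicate could be left out. Depth is unknown, so weak regions in 1 list cannot be told apart from differences in calling.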
